A study of Homo sapiens with 18 samples.

Results

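HLA class I presentation genes are described here in U2OS cells, a human osteosarcoma line that carries wild-type p53. The 9 genes were chosen by name, by a rule that uses no measured value, although earlier results of these data were known. They are the heavy chains *HLA-B*, *HLA-C*, *HLA-E* and *HLA-F*, the light chain *B2M*, the peptide transporter subunits *TAP1* and *TAP2*, the loading factor *TAPBP* and the regulator *NLRC5*. All 9 were found in each of the 6 deposited tables and were tested in each, and the tables together list 26702 genes. Polyadenylated RNA had been sequenced from cells that received siControl, siANKRA2 or siRFXANK and were kept for 24 h in 10 µM Nutlin-3a or in its solvent DMSO. Each of the 6 groups held 3 samples, 18 in all, every sample of the same line and given an siRNA. The labels of the siRFXANK samples add wild-type genotype, bone as the tissue and epithelial cells as the cell type, and these samples were registered apart, with no siControl sample of their own. A batch and siRFXANK therefore cannot be told apart in siRFXANK over siControl.

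A class I molecule shows the cell's own peptides to cytotoxic T cells and NK cells. Its heavy chain pairs with β2-microglobulin, the product of *B2M*, and takes up a peptide that the TAP1 and TAP2 transporter has carried into the endoplasmic reticulum, held in place meanwhile by tapasin, the product of *TAPBP*. The promoters of heavy chain genes and *B2M* carry a module of boxes read by the RFX complex of RFX5, RFXAP and RFXANK, by CREB and ATF factors and by NF-Y, and NLRC5 joins these proteins without touching DNA itself. ANKRA2 is an ankyrin repeat protein related to RFXANK, and Nutlin-3a raises p53 by freeing it from MDM2. *TAP1* is a known p53 target.

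The boxes named above can be read in the promoters, and 3 upstream stretches and a pair of short *TAP1* stretches are shown so that the boxes of heavy chains, light chain and transporter can be compared. The sequences are RefSeq's on GRCh38.p14, 5′ to 3′ on the gene's strand, and capitals mark 4 motifs searched on both strands. These are the CRE core TGACG, the CCAAT box, which reads ATTGG on the opposite strand, the interferon response element GAAANNGAAA and the kappaB site GGGNNTTNCC. The stretches lie at chr6:31357189-31357379 on the minus strand for *HLA-B*, chr6:31272131-31272292 on the minus strand for *HLA-C* and chr15:44711317-44711486 on the plus strand for *B2M*, each ending before the first annotated exon of its gene. For *TAP1*, whose window lies in an annotated first exon, only 30 bases around each element are shown, at chr6:32853816-32853845 and chr6:32853757-32853786 on the minus strand.
HLA-B: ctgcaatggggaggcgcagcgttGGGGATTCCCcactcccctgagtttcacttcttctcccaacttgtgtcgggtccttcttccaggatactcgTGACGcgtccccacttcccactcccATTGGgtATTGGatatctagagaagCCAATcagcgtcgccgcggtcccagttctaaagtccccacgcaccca
HLA-C: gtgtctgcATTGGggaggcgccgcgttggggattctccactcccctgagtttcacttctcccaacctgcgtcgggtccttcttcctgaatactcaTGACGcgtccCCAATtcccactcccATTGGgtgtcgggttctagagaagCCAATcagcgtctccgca
B2M: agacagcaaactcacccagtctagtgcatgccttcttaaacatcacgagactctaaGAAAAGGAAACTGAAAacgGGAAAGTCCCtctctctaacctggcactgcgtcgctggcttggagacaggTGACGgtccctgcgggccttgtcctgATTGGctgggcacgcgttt
TAP1 interferon response element: cggccgcTTTCGATTTCGCTTTCccctaaa
TAP1 kappaB site: gcctgttcctGGGACTTTCCgagagccccg

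RefSeq windows of 300 bases, 250 before and 50 after a start, were matched for 7 of the 9 genes. In *HLA-B*, *HLA-C* and *B2M* a TGACG was followed by ATTGG 25 or 26 bases further on, counted from start to start, a spacing that was read from these 3 promoters. The same pair was present in 53 of 35093 windows of all genes, or 0.151%. The single motifs were far more common. TGACG was in 24.5% of all windows, CCAAT in 34.6%, the interferon element in 3.58% and the kappaB site in 5.68%. An interferon element was found in *B2M*, *HLA-F*, *TAP1*, *TAP2* and *TAPBP*, and a kappaB site in *HLA-B*, *B2M*, *TAP1* and *TAPBP*. The letters GCAAC, an RFX core that 33.6% of all windows hold, were in none of the member windows. A match of letters is a description and does not say which protein was bound, and adjacent interferon elements overlap in *B2M*, *TAP1* and *TAPBP*. The map of motif positions shows both TGACG and CCAAT in *HLA-B*, *HLA-C* and *B2M*. It shows CCAAT without TGACG in *HLA-F* and *TAP1*, TGACG without CCAAT in *TAP2*, and neither in *TAPBP*.

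**Figure D1:**
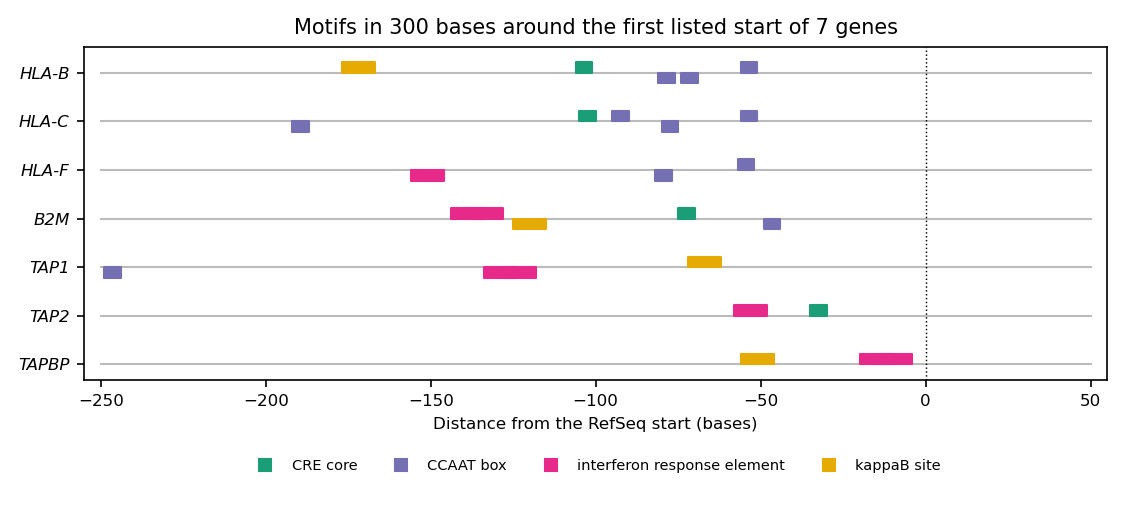
Positions of 4 motifs in windows of 300 bases around the first listed RefSeq start of 7 genes, in bases from the start (0, dotted line), with boxes above a line on the gene's strand and below it on the other strand. *HLA-B* and *HLA-C* hold TGACG at -106 and -105, *B2M* at -75, and *TAP1* holds its interferon elements from -134 to -119 and its kappaB site from -72 to -63.

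Most of the genes were strongly expressed. The deposited mean of normalized counts over all samples was 12597 for *B2M*, 11275 for *HLA-B*, 8772 for *HLA-C*, 4595 for *TAPBP*, 4267 for *HLA-E*, 3143 for *TAP1*, 831 for *TAP2*, 395 for *HLA-F* and 253 for *NLRC5*. Per kilobase of annotated exon, the order of these mean levels changed. *HLA-B* led with 3695 and *HLA-C* followed with 3499, ahead of *B2M* with 2072, *HLA-E* with 1434, *TAPBP* with 909 and *TAP1* with 654. *TAP2* with 130.0, *HLA-F* with 91.0 and *NLRC5* with 20.4 normalized counts per kilobase were low. The transporter works as a pair of subunits, and the mean per kilobase was higher for *TAP1* than for *TAP2*. The length used was that of all annotated exons of a gene joined. It was 6079 bases for *B2M*, whose longest transcript has 2403, and 4342 for *HLA-F*, whose longest has 1635. The order per kilobase therefore depends on the length chosen, and which transcripts the cells made was not tested. The means lie over all groups of the fit, and the depth of each library is unknown.

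Some of these genes can share reads with others. In GENCODE 29 on GRCh38, *HLA-B* (chr6:31269491-31357188) and *HLA-C* (chr6:31268749-31272130) overlap on the minus strand, exons included. *HLA-E* lies at chr6:30489467-30494205 and *HLA-F* at chr6:29722775-29738528, both on the plus strand. *TAP1* (chr6:32845209-32853978), *TAP2* (chr6:32821833-32838780) and *TAPBP* (chr6:33299694-33314387) are on the minus strand of the same chromosome, *B2M* is at chr15:44711487-44718877 and *NLRC5* at chr16:56989485-57083531, both on the plus strand. Stretches of 31 bases in the longest transcript were matched to transcripts of other genes on either strand. The share matched was 49.2% in *HLA-F*, 36.0% in *TAP2*, 32.5% in *HLA-B* and 21.0% in *HLA-C*. These shares were 16.4% in *TAP1*, 13.7% in *TAPBP*, 13.0% in *HLA-E*, 3.92% in *B2M* and 0% in *NLRC5*. The gene sharing most overlaps on the opposite strand for *HLA-F* (28.8%), *HLA-B* (20.8%) and *TAP1* (14.7%). Such matches can share reads only if counting ignored the strand. The antisense RNA *PSMB8-AS1* overlaps *TAP1* exons and had a mean of 39.0 normalized counts, and whether counting used the strand is not given in the sources used here. Values of *HLA-B*, *HLA-C*, *HLA-F* and *TAP2* are therefore less certain than their errors show.

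The siRNA targets come first, since they fix how the tables are read. *ANKRA2* was lower by 3.51-fold after siANKRA2 in DMSO and by 5.97-fold in Nutlin-3a, and *RFXANK* by 7.78-fold and 8.96-fold after siRFXANK. The comparisons were read as siRNA over siControl because of these signs, so they do not test the knockdown. siANKRA2 also went with lower *RFXANK*, at a log2 fold change of -0.37 ± 0.07 (SE, n = 3 per group) in DMSO, and siRFXANK with higher *ANKRA2*, at 0.73 ± 0.11 in DMSO and 0.46 ± 0.06 in Nutlin-3a. Nutlin-3a raised *ANKRA2* 3.88-fold in siControl cells, and siANKRA2 cells in Nutlin-3a stood at 64.9% of the *ANKRA2* level of siControl cells in DMSO. *ANKRA2* had a mean of 31568 normalized counts, above that of every class I gene here, and why was not tested. In the joint fit, *COL1A1*, a bone matrix gene, had a mean of 64042 normalized counts and *SPARC* of 29456. The osteoblast genes *RUNX2*, *ALPL* and *BGLAP* stood at 454, 148 and 2.08, and *SP7* was not listed. Among epithelial markers *KRT8* and *KRT18* stood at 21456 and 12960, *EPCAM* at 161, *CDH1* at 32.9 and *KRT19* at 1.67. White blood cell markers, which could bring class I genes with them, were at 3.81 for *PTPRC* and 2.59 for *CD14*, and *CD3E* and *LYZ* were not listed. In bulk RNA, fewer cells of a type and less RNA per cell cannot be told apart.

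siANKRA2 went with more RNA of *HLA-B*, *HLA-E*, *TAP1* and *TAP2*, and with less of *TAPBP* and *NLRC5*, in both treatments. In DMSO 5 of the 9 genes were higher and 2 lower at an adjusted p under 0.05, against 24.3% of all genes higher and 24.5% lower. *HLA-E*, the ligand of the NKG2A receptor on NK cells, rose 2.20-fold, a log2 fold change of 1.14 ± 0.04 (SE, n = 3 per group, adjusted p = 5.2e-179). *TAP1* rose 1.98-fold, by 0.98 ± 0.04 (adjusted p = 3.6e-127). The classical heavy chains moved less. *HLA-B* rose by 0.43 ± 0.05 and *HLA-C* by 0.13 ± 0.04, with adjusted p = 1.1e-18 and 0.0011. *TAP2* rose by 0.25 ± 0.06 (adjusted p = 4.6e-05).

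On the other side, *NLRC5*, the class I transactivator, fell, at -0.58 ± 0.10 (adjusted p = 2.3e-08), and *TAPBP* fell by 0.21 ± 0.04 (adjusted p = 1.2e-06). The lower *NLRC5* stood beside higher *HLA-B*, *HLA-C* and *HLA-E* in the same cells. *B2M* at 0.08 ± 0.05 and *HLA-F* at -0.06 ± 0.08 were not called. The 95% interval of *B2M* ran from -0.01 to 0.18 and that of *HLA-F* from -0.22 to 0.10.

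In Nutlin-3a the siANKRA2 values kept their directions, and 5 genes were higher and 3 lower, against 24.6% and 25.5% of all genes. *HLA-E* rose by 0.75 ± 0.04 (adjusted p = 2.4e-82), *TAP1* by 0.28 ± 0.04, *TAP2* by 0.31 ± 0.06, *HLA-B* by 0.24 ± 0.05 and *B2M* by 0.12 ± 0.05. *NLRC5* fell by 0.64 ± 0.10, *TAPBP* by 0.47 ± 0.04 and *HLA-F* by 0.30 ± 0.08. *HLA-C* at 0.08 ± 0.04 was not called (adjusted p = 0.061, or 0.045 when genes under a mean of 10 are left out).

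siRFXANK gave another picture, with *TAP1* well below siControl. In DMSO 3 of the 9 genes were higher and 4 lower, against 20.9% and 21.2% of all genes, and in Nutlin-3a 2 were higher and 4 lower, against 19.8% and 19.6%. *TAP1* was lower by 2.62-fold in DMSO, at -1.39 ± 0.05 (adjusted p = 5.2e-171), and by 2.32-fold in Nutlin-3a, at -1.21 ± 0.04 (adjusted p = 9.4e-204). *NLRC5* was lower by 1.88-fold and 1.81-fold, at -0.91 ± 0.10 and -0.85 ± 0.10 (adjusted p = 9.5e-18 and 3.4e-15). *TAPBP* was lower at -0.22 ± 0.04 and -0.16 ± 0.04. *HLA-F* was lower in Nutlin-3a, at -0.24 ± 0.08 (adjusted p = 0.011), and stood at -0.06 ± 0.08 in DMSO.

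The heavy chains and the light chain moved less than *TAP1*, and not all in its direction. *HLA-E* was higher in siRFXANK cells at 0.35 ± 0.04 in DMSO and 0.41 ± 0.04 in Nutlin-3a (adjusted p = 3.5e-17 and 2.8e-24). *B2M* was higher at 0.11 ± 0.05 and 0.30 ± 0.05 (adjusted p = 0.037 and 1.2e-09). *HLA-B* was at -0.12 ± 0.05 (adjusted p = 0.041, or 0.055 after centring on the median gene among those whose mean reaches 100) and -0.01 ± 0.05, and *HLA-C* at 0.09 ± 0.04 (adjusted p = 0.044) and 0.01 ± 0.04. In Nutlin-3a the 95% intervals of *HLA-B*, from -0.10 to 0.09, and of *HLA-C*, from -0.07 to 0.08, lay above the whole interval of *TAP1*, from -1.29 to -1.13. *TAP2* was not called in either treatment, at -0.11 ± 0.06 and -0.09 ± 0.06. Every siRFXANK value in this paragraph and the one before it also holds whatever batch these libraries carry, and its part in the result was not tested.

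**Figure D2:**
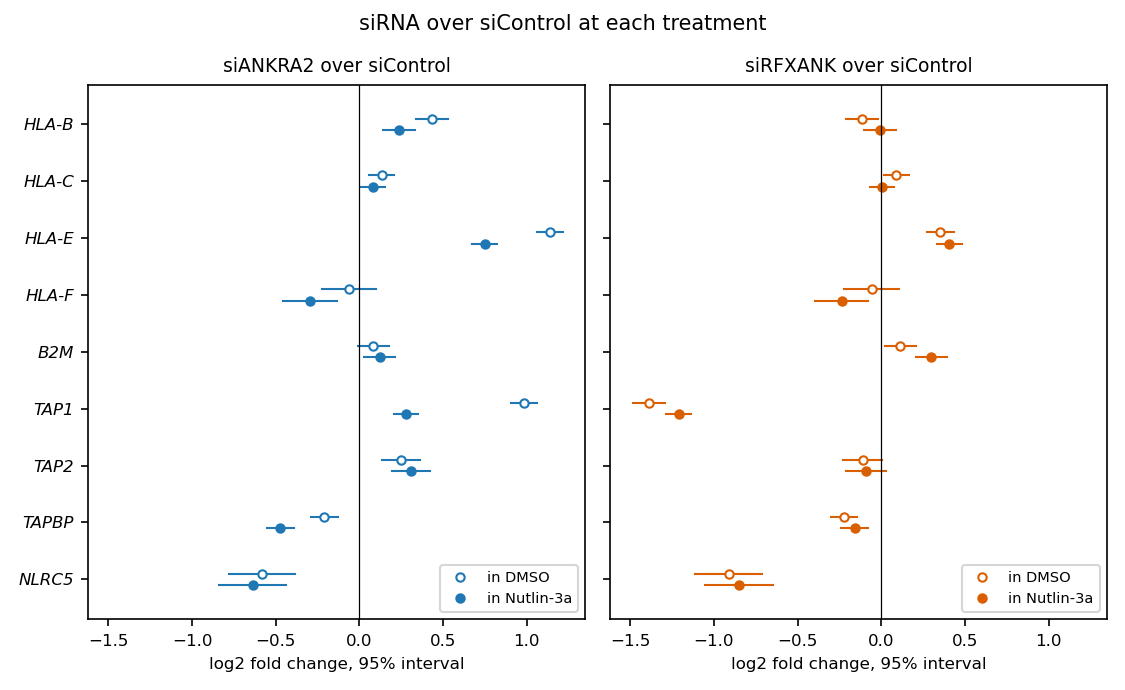
Log2 fold change of siANKRA2 (left) and siRFXANK (right) over siControl for the 9 genes in DMSO (open points) and Nutlin-3a (filled points), with bars for the 95% interval from the standard error, 3 samples per group. *TAP1* is to the right of 0 after siANKRA2 and at -1.39 and -1.21 after siRFXANK, while *NLRC5* and *TAPBP* are to the left of 0 in both panels.

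Nutlin-3a raised *TAP1* in all 3 siRNA conditions. In siControl cells *TAP1* rose 2.67-fold, at 1.42 ± 0.04 (adjusted p = 4.1e-272), in siRFXANK cells 3.01-fold, at 1.59 ± 0.05 (adjusted p = 2.0e-229), and in siANKRA2 cells 1.64-fold, at 0.71 ± 0.04 (adjusted p = 1.8e-78). The siRFXANK response was derived here from the deposited tables. In siControl cells 6 of the 9 genes were higher and 0 lower, against 21.9% and 21.2% of all genes. In siANKRA2 cells 3 were higher and 0 lower, against 15.5% and 17%, and in siRFXANK cells 6 were higher and 0 lower, against 22.8% and 22.5%. At an unadjusted p under 0.05, in the test that the authors made with DESeq2 and in the same normal test for siRFXANK cells, the count of lower genes was also 0 in each condition.

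The heavy chains *HLA-B* and *HLA-C* rose under Nutlin-3a in all 3 conditions. *HLA-B* rose by 0.49 ± 0.05 in siControl cells, 0.29 ± 0.05 in siANKRA2 cells and 0.59 ± 0.05 in siRFXANK cells, with adjusted p of at most 1.4e-08. *HLA-C* rose by 0.26 ± 0.04, 0.21 ± 0.04 and 0.18 ± 0.04 in the same order. *HLA-E* rose by 0.48 ± 0.04 in siControl cells and 0.53 ± 0.04 in siRFXANK cells, and stood at 0.09 ± 0.04 in siANKRA2 cells (adjusted p = 0.052, or 0.043 when genes under a mean of 10 are left out), where it began from a higher level. *HLA-F* was called in siControl cells, at 0.20 ± 0.08 (adjusted p = 0.038), and in neither knockdown, at -0.04 ± 0.08 and 0.02 ± 0.08.

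Among the other components, *TAPBP* rose by 0.21 ± 0.04 in siControl cells and 0.27 ± 0.04 in siRFXANK cells, and stood at -0.06 ± 0.04 in siANKRA2 cells. *B2M* rose by 0.19 ± 0.05 in siRFXANK cells (adjusted p = 0.00020) and was at 0.00 ± 0.05 in siControl cells, with a 95% interval from -0.09 to 0.09. *TAP2* and *NLRC5* were not called in any condition. Their values under Nutlin-3a lay between -0.06 and -0.01 for *TAP2* and between -0.13 and -0.01 for *NLRC5*. Of the transporter subunits, *TAP1* was called higher in every siRNA condition and *TAP2* in none.

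Whether a response differed between siRNA conditions was tested on the difference itself. For siANKRA2 minus siControl, 4 of the 9 genes had a lower response and 0 a higher one, against 12.5% and 11.4% of all genes. The response of *TAP1* differed by -0.70 ± 0.05 on the log2 scale (adjusted p = 2.4e-35), that of *HLA-E* differed by -0.39 ± 0.06 (adjusted p = 7.3e-11), that of *TAPBP* by -0.26 ± 0.06 (adjusted p = 5.0e-05) and that of *HLA-B* by -0.20 ± 0.07 (adjusted p = 0.019). Of these genes, *TAP1*, *HLA-E* and *HLA-B* were already higher in siANKRA2 cells in DMSO, while *TAPBP* was lower there. *HLA-C*, at -0.05 ± 0.05 with a 95% interval from -0.16 to 0.05, and the remaining genes were not called. At an unadjusted p under 0.05, 5 responses were lower and 0 higher.

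For siRFXANK minus siControl, 2 genes had a higher response and 0 a lower one, against 11.6% and 9.64% of all genes. These were *B2M*, with a difference of 0.19 ± 0.07 (adjusted p = 0.028), and *TAP1*, with 0.18 ± 0.06 (adjusted p = 0.029). The level of *TAP1* in siRFXANK cells stayed below that of siControl cells at each treatment, while its fold response was larger. At an unadjusted p under 0.05, 0 responses were lower. For *HLA-E* the difference was 0.05 ± 0.06, with a 95% interval from -0.06 to 0.16. These differences are free of a batch effect only where that effect was alike in DMSO and in Nutlin-3a.

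**Figure D3:**
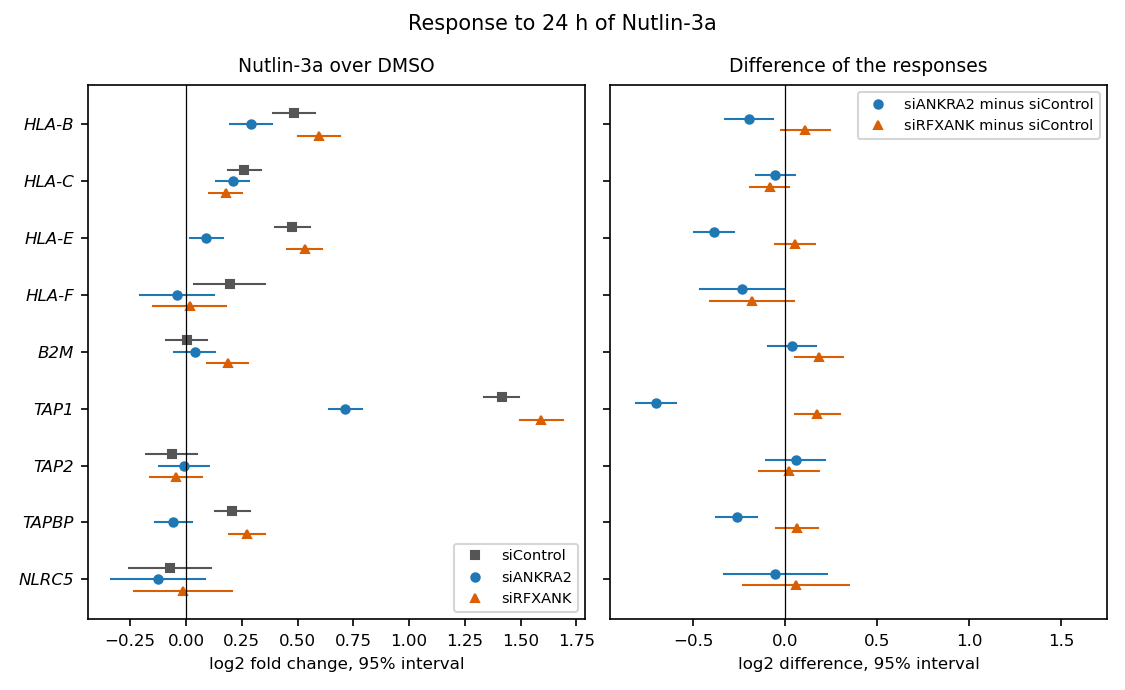
Left, log2 fold change of Nutlin-3a over DMSO in siControl, siANKRA2 and siRFXANK cells, and right, the difference of each knockdown's response from that of siControl cells on the log2 scale, with bars for 95% intervals and 3 samples per group. *TAP1* is the farthest to the right in the left panel in each condition, and its differences are -0.70 for siANKRA2 and 0.18 for siRFXANK.

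Set out by group, the levels spread most in *TAP1*. With siControl cells in DMSO as 100%, its fitted level was 38.2% in siRFXANK cells and 198% in siANKRA2 cells in DMSO, and in Nutlin-3a 267% in siControl cells, 324% in siANKRA2 cells and 115% in siRFXANK cells. With the 6 groups ordered from the lowest level to the highest, all 5 steps between neighbours had a 95% interval above 0. The *TAP1* level of siRFXANK cells in Nutlin-3a was 0.20 ± 0.04 above that of siControl cells in DMSO on the log2 scale. *HLA-E* ran from 100% in siControl cells in DMSO through 128% (siRFXANK, DMSO), 139% (siControl, Nutlin-3a) and 185% (siRFXANK, Nutlin-3a). It reached 219.9% (siANKRA2, DMSO) and 234% (siANKRA2, Nutlin-3a), again with all 5 steps above 0. The last of these steps is the Nutlin-3a response of siANKRA2 cells, which was not called after adjustment.

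*HLA-B* had its lowest level in siRFXANK cells in DMSO, 92.3%, and its highest in siANKRA2 cells in Nutlin-3a, 165%. Between these, the levels of siANKRA2 in DMSO, siRFXANK in Nutlin-3a and siControl in Nutlin-3a, from 135% to 140.1%, were neighbours that did not differ beyond their error. *HLA-C* stayed between 100% and 127%. *B2M* stayed within 108.9% in 5 groups and reached 123% in siRFXANK cells in Nutlin-3a, the single step of 5 whose interval was above 0.

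*NLRC5* was highest in siControl cells, at 100% in DMSO and 95.2% in Nutlin-3a, and stood from 52.7% to 66.8% in the 4 other groups. Of its 5 steps, only that from siANKRA2 in DMSO to siControl in Nutlin-3a had an interval above 0, at 0.51 ± 0.10. Among the 4 lower groups only neighbours were compared, so a difference between groups further apart was not tested. *TAP2* was at 119% and 118% in siANKRA2 cells and between 89.8% and 100% in the other groups. *TAPBP* ranged from 83.3% in siANKRA2 cells in Nutlin-3a to 116% in siControl cells in Nutlin-3a, and *HLA-F* from 93.2% to 114% in the same groups. The steps are intervals of the fit and were not adjusted for their number. Groups were ordered by these same levels, so every step is positive by construction.

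**Figure D4:**
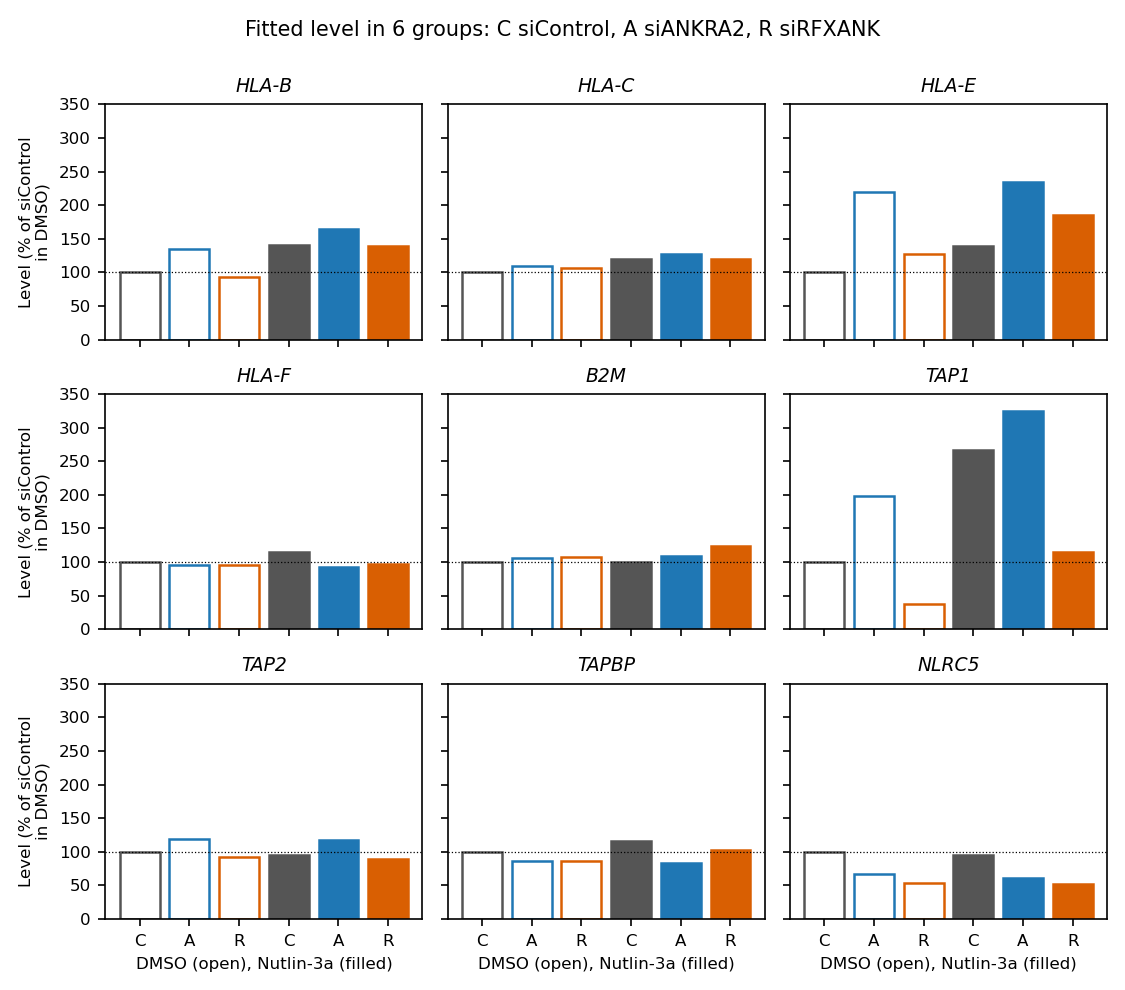
Fitted level of each gene in 6 groups as a percentage of siControl cells in DMSO (dotted line at 100%), with open bars for DMSO and filled bars for Nutlin-3a, 3 samples per group. Bars carry no error bars because the levels are ratios to 1 group. *TAP1* spans 38.2% to 324% and *HLA-E* 100% to 234%, while *B2M* spans 100% to 123%.

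The 9 genes did not share a profile. Over the 6 tables, which share control samples, the root mean square difference of log2 fold changes was smallest between *HLA-F* and *TAPBP*, 0.12, and between *HLA-C* and *B2M*, 0.18, and largest between *HLA-E* and *NLRC5*, 1.18. Of 13103 genes with a mean of at least 100, 12084 were nearer to the median of the 9 genes than *TAP1* was, and 122 nearer than *HLA-C*. The 5 genes outside the set closest to that median were *MTERF1* at 0.05, *TFIP11* and *HEATR6* at 0.06, and *A4GALT* and *GLG1* at 0.07, values that rest on small changes.

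The rest of the pathway moved differently under siANKRA2. A list of 13 further genes of class I presentation holds proteasome subunits, peptide trimming enzymes and chaperones. After siANKRA2 10 of the 13 fell and 2 rose in DMSO, and 9 fell and 2 rose in Nutlin-3a, with a median log2 fold change of -0.57 and -0.48 against 0.01 and -0.01 over all genes. The shares of all genes called lower and higher were 24.5% and 24.3% in DMSO, and 25.5% and 24.6% in Nutlin-3a. The proteasome activator *PSME1* fell 2.01-fold in DMSO, at -1.01 ± 0.05, and the trimming enzyme *ERAP2* 2.11-fold, at -1.08 ± 0.21. *ERAP1* fell by 0.65 ± 0.07, the immunoproteasome subunit *PSMB9* by 0.57 ± 0.08, the peptide editor *TAPBPL* by 0.73 ± 0.12 and the chaperone *PDIA3* by 0.60 ± 0.03.

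After siRFXANK 3 of the 13 were higher and 3 lower in DMSO, where 20.9% and 21.2% of all genes were, and 3 and 4 in Nutlin-3a, where 19.8% and 19.6% were. Under Nutlin-3a 5 of the 13 were higher and 1 lower in siControl cells (all genes 21.9% and 21.2%), 6 and 0 in siANKRA2 cells (15.5% and 17%), and 5 and 4 in siRFXANK cells (22.8% and 22.5%). Of the response differences, 3 of the 13 were higher and 0 lower for siANKRA2 (all genes 11.4% and 12.5%), and 2 higher and 1 lower for siRFXANK (11.6% and 9.64%). *PSMB9* is set beside *TAP1* because both are read from a shared stretch of DNA in opposite directions, with RefSeq starts 488 bases apart. In siRFXANK cells in DMSO *TAP1* was at -1.39 ± 0.05 and *PSMB9* at 0.04 ± 0.07. In siANKRA2 cells in DMSO *TAP1* was at 0.98 ± 0.04 and *PSMB9* at -0.57 ± 0.08. Under Nutlin-3a *TAP1* was at 1.42 ± 0.04 in siControl cells and *PSMB9* at -0.15 ± 0.07. In siANKRA2 cells Nutlin-3a raised both, *TAP1* by 0.71 ± 0.04 and *PSMB9* by 0.27 ± 0.08. In all 4 of these comparisons the 95% intervals of *TAP1* and *PSMB9* did not overlap. Exons of *PSMB9*, with a mean of 627 normalized counts, overlap those of *PSMB8* on the opposite strand, with a mean of 1921. They also overlap *PSMB8-AS1*, so the *PSMB9* values may hold reads of other genes, which was not tested.

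A last list holds 14 known regulators of class I genes. After siANKRA2 3 of the 14 rose and 9 fell in DMSO, and 4 rose and 7 fell in Nutlin-3a. Of all genes 24.3% were higher and 24.5% lower in DMSO, and 24.6% and 25.5% in Nutlin-3a. *RFX5*, the DNA-binding subunit of the RFX complex, fell 1.97-fold in DMSO, at -0.98 ± 0.05, and 3.37-fold in Nutlin-3a, at -1.75 ± 0.05. The NF-κB subunits rose, *NFKB1* by 1.29 ± 0.05 in DMSO and *RELA* by 0.57 ± 0.04. *IRF1*, which binds interferon response elements, rose in DMSO by 0.72 ± 0.07 and stood at -0.01 in Nutlin-3a.

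After siRFXANK 5 of the 14 were higher and 5 lower in DMSO (all genes 20.9% and 21.2%), and 7 and 3 in Nutlin-3a (19.8% and 19.6%). *RELA* fell 1.93-fold in DMSO, at -0.95 ± 0.04, and 1.89-fold in Nutlin-3a, at -0.92 ± 0.04, opposite in sign to its values after siANKRA2. *NFKB1* was lower in DMSO, at -0.19 ± 0.05, and higher in Nutlin-3a, at 0.27 ± 0.05. *RFX5* was higher, at 0.41 ± 0.04 in DMSO. Under Nutlin-3a 6 of the 14 were higher and 4 lower in siControl cells (all genes 21.9% and 21.2%), 2 and 5 in siANKRA2 cells (15.5% and 17%), and 8 and 3 in siRFXANK cells (22.8% and 22.5%). *RFX5* rose 2.04-fold in siControl cells, at 1.03 ± 0.04, and *IRF1* by 0.62 ± 0.07. The response differences were higher for 2 and lower for 3 of the 14 for siANKRA2 (all genes 11.4% and 12.5%), and higher for 4 and lower for 2 for siRFXANK (11.6% and 9.64%). *IRF1* had a smaller response in both knockdowns, with a difference of -0.73 ± 0.10 for siANKRA2 (adjusted p = 5.7e-11) and of -0.34 ± 0.10 for siRFXANK (adjusted p = 0.0077). These values stand beside those of the class I genes, and their part in the result was not tested.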

How the data were processed

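RNA-seq of 18 U2OS samples in 6 groups of 3 was analysed from 6 tables of comparisons that the authors made with DESeq2. The submitters' processing notes name featureCounts 1.6.5, DESeq2 1.20.0 and hg38, and the read aligner, the annotation and the number of samples in the fit are not given in the sources used here. Each deposited table holds a gene's mean normalized count over the samples of the fit, treated here as a signal value. Further deposited columns give a log2 fold change, the standard error of that log2 value, and a p-value before and after adjustment by the Benjamini-Hochberg method. Values of single libraries were not used, so depth per library is unknown and counting intervals were not computed. Nothing says that samples of a group came from separate cultures, so p-values may measure technical spread.

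A gene's mean was the same in all tables, and the comparisons among siControl and siANKRA2 closed to within 1.4e-14, so the tables come from 1 joint fit. A gene was called at an adjusted p under 0.05, and 95% intervals are the value ± 1.96 SE. The Nutlin-3a response in siRFXANK cells was derived by adding to the siControl response the value of siRFXANK over siControl in Nutlin-3a and subtracting that in DMSO, with its SE from those of the 3 comparisons. A difference of responses was divided by the root of its summed squared SEs, with a two-sided normal p adjusted over all genes. Both steps were run on simulated counts whose spread was known. For the derived response this checks the arithmetic alone, since its value and SE follow by algebra. Group levels were set from the 6 comparisons, with siControl in DMSO as 100%. Python 3.11.15 with numpy 2.4.6, pandas 2.3.3 and scipy 1.17.1 was used.

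Of 26702 gene IDs, 26659 (99.8%) are in GENCODE 29. The genes named are the 9 members, the siRNA targets, a list of 13 further presentation genes and a list of 14 regulators, the 5 genes nearest to the members' median and genes that overlap a member. The members and lists were chosen with earlier results of these data known. Marker genes of bone, epithelium and white blood cells were checked by their means. Alternatives changed the threshold, a minimum size, a minimum mean, the genes adjusted over, the centring and the tables behind the siANKRA2 difference.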

Additional observations from a re-analysis of the deposited data

Results flagged for a closer look

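Responses to Nutlin-3a that differed from those of siControl cells were picked out by the test of the difference itself, at an adjusted p under 0.05 over all genes. For siANKRA2 they were *HLA-B* at -0.20 ± 0.07 (SE), *HLA-E* at -0.39 ± 0.06, *TAP1* at -0.70 ± 0.05 and *TAPBP* at -0.26 ± 0.06 on the log2 scale. For siRFXANK they were *B2M* at 0.19 ± 0.07 and *TAP1* at 0.18 ± 0.06. The sign for *TAP1* was thus opposite in the knockdowns.

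Among the further presentation genes, the siANKRA2 differences were 0.16 for *CALR*, 0.17 for *CANX* and 0.43 for *PSMB9*. The siRFXANK differences were 0.30 for *CANX*, 0.30 for *ERAP1* and -0.29 for *PSME1*.

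Among regulators, the siANKRA2 differences were -0.78 for *RFX5*, 0.65 for *RFXAP*, 0.41 for *NFYB*, -0.73 for *IRF1* and -0.44 for *NFKB1*. The siRFXANK differences were 0.47 for *RFX7*, 0.24 for *NFYA*, -0.14 for *NFYC*, -0.34 for *IRF1*, 0.47 for *NFKB1* and 3.14 for *CIITA*, whose mean was 6.61 normalized counts. The siRNA target *ANKRA2* had a siANKRA2 difference of -0.77. The knockdowns share the siControl samples, and a difference for siRFXANK includes any batch effect that was unlike in DMSO and Nutlin-3a.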

How the results depend on the processing

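No paired analysis was possible because the tables hold fitted comparisons of groups, so neither the replicate block nor fits that leave out a replicate were run. Each printed count is of the 9 genes called, in either direction. With a minimum change of 1.5-fold, the counts fell to 1 under Nutlin-3a in siControl cells, 1 in siANKRA2 cells and 2 in siRFXANK cells, 2 for siANKRA2 and 2 for siRFXANK over siControl in each treatment, and 1 and 0 for the response differences of siANKRA2 and siRFXANK. With a minimum log2 value of 1, they fell to 1, 0 and 1 under Nutlin-3a, to 1 in DMSO and 0 in Nutlin-3a for siANKRA2, to 1 in each treatment for siRFXANK, and to 0 for both response differences. A minimum size leaves out small changes by construction. At a threshold of 0.01, siRFXANK over siControl in DMSO gave 4 calls, without *HLA-B*, *HLA-C* and *B2M*, and its response difference gave 0, without *B2M* and *TAP1*. The other calls lost at 0.01 were *HLA-F* under Nutlin-3a in siControl cells (adjusted p = 0.038) and in siRFXANK over siControl in Nutlin-3a (0.011), *B2M* in siANKRA2 over siControl in Nutlin-3a (0.021) and *HLA-B* in the siANKRA2 response difference (0.019).

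Centring on the median of genes with a mean of at least 100 moved 3 values that were not called across 0, *TAP2* under Nutlin-3a in siANKRA2 cells to 0.011, *HLA-C* in siRFXANK over siControl in Nutlin-3a to -0.0099 and *NLRC5* under Nutlin-3a in siRFXANK cells to 0.0055. It also ended the call of *HLA-B* in siRFXANK over siControl in DMSO (adjusted p = 0.055). *HLA-E* under Nutlin-3a in siANKRA2 cells and *HLA-C* in siANKRA2 over siControl in Nutlin-3a became calls with this centring and with a minimum mean of 10 or of 100, at adjusted p between 0.014 and 0.045. Adjusting over the genes in all 6 tables changed no call of the 9 genes. The siANKRA2 difference taken from the other pair of tables has the same value by construction, so its unchanged calls are no independent check. The cause was not tested for these shifts. No second siRNA against a target and no single library was examined.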
